A study of Mus musculus with 10 samples.

Results

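Cytosolic ribosomal protein genes encode the proteins of the large and small ribosomal subunits. They were followed in mouse hepatocytes on 10 oligonucleotide arrays of 12488 probe sets, 1 array of total RNA per sample. A probe set was taken as a member if the platform's annotation gave it 1 gene symbol that starts with Rpl or Rps and a digit, or the symbol Rplp0, Rplp1, Rplp2 or Rpsa, and kinases of the Rps6k family were left out. This gave 49 probe sets for 35 of the 8251 genes that the annotation names singly. Of these, 19 probe sets were for 14 genes of the large subunit, 24 were for 16 genes of the small subunit and 1 was for the stalk protein gene Rplp0. The other 5 were for 4 paralogs or related genes, Rpl7l1, Rpl39l, Rps4l and Rps27l. A further 39 probe sets carried several symbols with a ribosomal protein gene among them, and were not members. Symbols such as Rplp1, Rpl5 and Rps6 occurred only there.

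The 4 groups were 3 hypoxic hepatocyte samples null for HIF-1alpha, 3 hypoxic adeno-treated wild-type samples, 2 normoxic adeno-treated samples and 2 normoxic untreated samples. There was no normoxic null sample. The labels number the samples within each group, and numbers 1 and 2 occur in all 4 groups while number 3 occurs in the 2 hypoxic groups. The sources used here give neither the oxygen level and length of hypoxia nor the adeno vector, the means of removing HIF-1alpha or the normoxic cells' genotype. They do not say whether null cells were adeno-treated too, or that each array stands for a separate culture, so p-values measure the spread between these samples, which may be technical.

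A cytosolic ribosome holds 1 copy of most of these proteins, and hepatocytes, which secrete much of the plasma's protein, carry many ribosomes. Messages of ribosomal proteins begin with a run of pyrimidines, the 5′ terminal oligopyrimidine or TOP motif, through which mTOR and LARP1 set how much of them is translated. HIF-1alpha is the oxygen-sensitive subunit of the transcription factor that drives many hypoxic genes. Low oxygen is known to restrain mTOR, partly through the HIF-1 target Ddit4, and TOP messages can then stay in the cell without being translated. An array of total RNA measures the amount of message and not its translation.

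The intensities were scaled before they were deposited. Trimmed by 2% at either end, the mean was at least 199.6 on every array and differed by less than 1 between arrays, so a change shared by all messages of a cell could not be seen. In such bulk samples, fewer cells of a type and less RNA per cell cannot be told apart. Hepatocyte marker genes were present, with 17 of 20 listed genes represented, each by probe sets bright enough to test. Lymphocyte genes were mostly dim, with 3 of the 10 genes represented bright enough to test. Samples of the same number deviated together from their group means (r = 0.10 to 0.68 over 13 pairs of samples, taken over 7453 probe sets, which are not independent of each other), so numbers were read as pairs. Samples of different number in different groups had r = -0.51 to 0.25 over 24 pairs. In a group of 2 the deviations mirror each other, so pairs with such a group are not separate evidence. Values below 0 between different numbers follow in part from the centring. Between the 2 hypoxic groups, of 3 samples each, r was 0.54 to 0.68 over 3 same-number pairs and -0.51 to -0.16 over 6 others. Over the 32 tested members alone, null and wild-type samples of numbers 1 to 3 had r = 0.16, 0.73 and 0.0054. The 18S control probe sets, averaged on the log2 scale, differed widely, at 8.14, 8.66 and 12.2 in null samples, 8.97, 7.38 and 12.3 in wild-type samples, 7.08 and 10.3 in normoxic adeno-treated samples, and 5.98 and 6.74 in untreated samples. Their part in the results was not tested.

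After probe sets with a mean intensity under 40.1 were left out, 32 member probe sets for 27 genes could be tested among 7453 probe sets. Of the 32, 18 had a mean intensity above 3000, a brightness shared by 155 probe sets with no ribosomal protein gene among their symbols. A further 3 lay between 1000 and 3000, 3 between 300 and 1000, and 8 under 150. The 17 untested members had means of 3.75 to 36.8. The brightest of them was a second probe set of Rps24, and the dimmest tested member was the probe set of Rpl32, at 41.4. No probe set of Rpl35a, Rpl38, Rpl39, Rpl39l, Rps14, Rps15, Rps20 or Rps27l was bright enough to test. The 4 other untested probe sets of Rps4x stood beside a tested one of the same gene that averaged 5899 in null samples, so dimness here describes a probe set and not its gene. Genes of this family have many processed pseudogenes and near-identical copies, and probe sets whose names end in f, r, s or i may hybridise with related transcripts.

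No member passed the test in any of the 4 comparisons (limma, adjusted p under 0.05 over 7453 probe sets, 2-sided). Between hypoxic wild-type and normoxic adeno-treated samples, 0.322% of all probe sets tested were called higher and 0.0134% lower. Between hypoxic null and normoxic adeno-treated samples, these shares were 0.349% and 0.0939%. No probe set at all was called between hypoxic null and hypoxic wild-type samples or between adeno-treated and untreated normoxic samples (0% in each direction), although 130 and 129 probe sets, then 309 and 310, reached an unadjusted p under 0.05 in the higher and lower directions. With the sample number as a block, limma still called 0 members in each comparison, while the shares of all probe sets called rose to 1.48% higher and 0.725% lower for hypoxic wild type, and to 2.94% and 2.87% for null against adeno. For null against wild type they were then 0.0134% and 0.0939%, and for adeno against untreated 0.107% and 0.134%. The 95% interval of a member's change reached a median of 0.38 on the log2 scale to either side in the 2 comparisons with normoxic adeno-treated samples, 0.34 for null against wild type and 0.42 for adeno against untreated. These half-widths are unadjusted and describe the precision of the estimates.

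**Figure D1:**
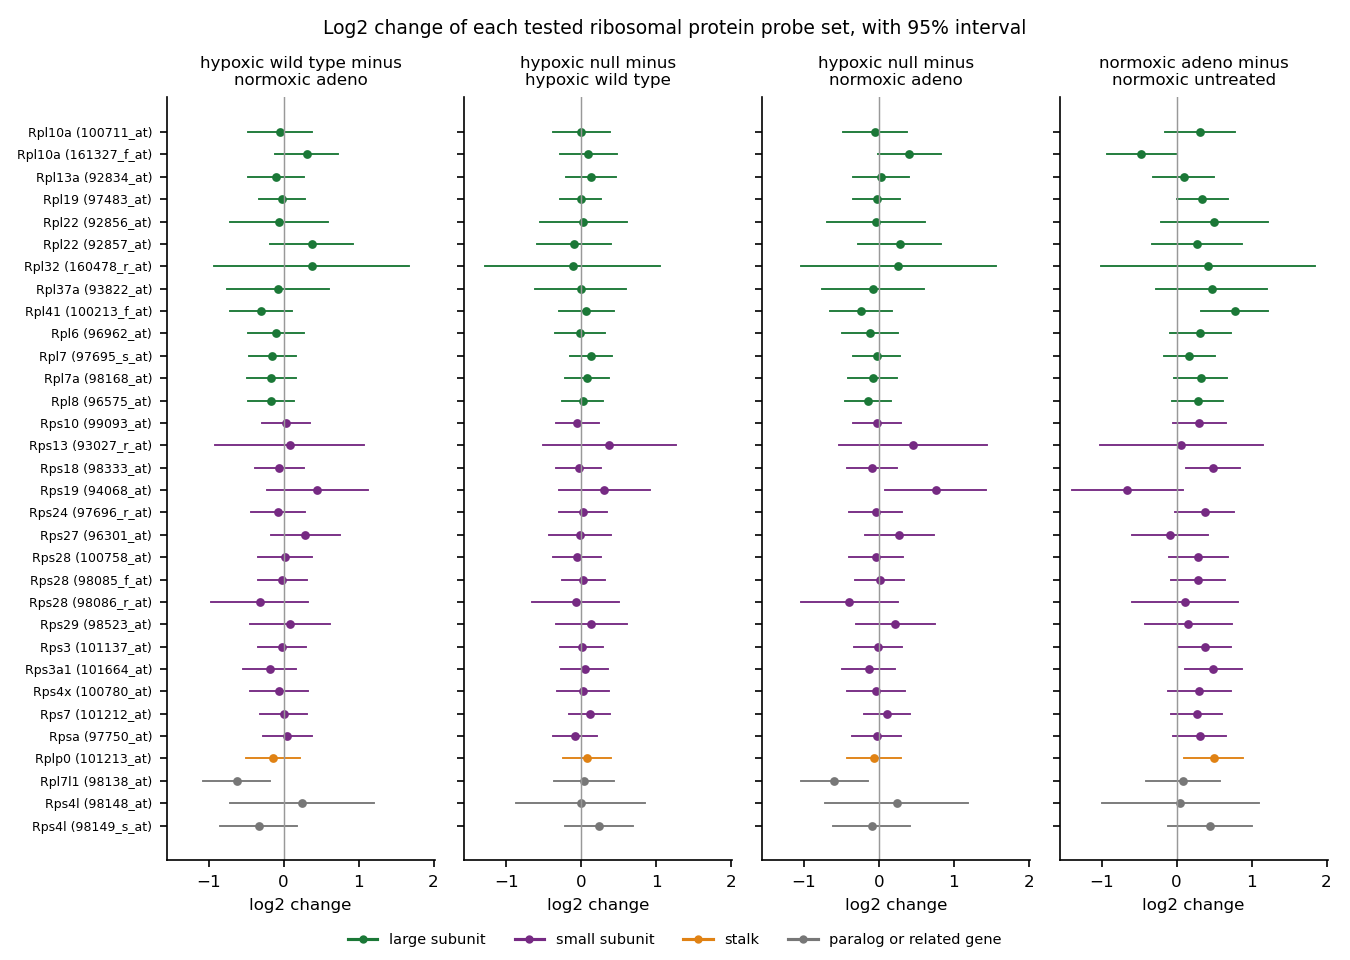
Log2 change (x axes, on the scale of intensity plus 4.7) of each of the 32 tested ribosomal protein probe sets (y axis) in 4 comparisons, with points for the limma estimate and lines for its 95% interval, coloured by the protein's place in the ribosome. In the 3 comparisons that involve hypoxia most points lie near 0, and in the comparison of adeno-treated with untreated normoxic samples 29 of 32 points lie above 0.

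The members' most uniform difference lay between the normoxic samples. Of 32 probe sets, 29 had a higher mean log2 value in adeno-treated than in untreated samples, as had 49.4% of all probe sets. The median log2 difference was 0.30, against -0.0056 over all 7453 probe sets. Both adeno-treated samples exceeded both untreated samples for 22 members, and the reverse held for 3, while such separation was found for 24.6% and 24.4% of all probe sets. No member reached an adjusted p under 0.49 in limma, so none can be said to have risen. Unadjusted p-values under 0.05 numbered 5 higher and 1 lower, against 4.15% and 4.16% of all probe sets. They numbered 14 and 2 with the replicate block, where 640 and 696 of all 7453 probe sets reached such a p. After quantile normalization they numbered 1 and 2, with no share over all probe sets given here to set them against. Under that scaling limma called 0 members and 0 of all 7453 probe sets, higher or lower, at an adjusted p under 0.05. Folds below are on the scale of intensity plus 4.7.

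In the stalk, Rplp0 forms the base to which the acidic proteins P1 and P2 attach. It had intensities of 7543 and 9857 in adeno-treated samples, against 5980.1 and 6250 in untreated samples. Its log2 change was 0.50 ± 0.18 (SE, 2 samples in each group, limma adjusted p = 0.51), a fold of 1.41. After quantile normalization the change was 0.036. The samples of the 2 groups did not overlap, and the gap between the groups was smaller than that between the adeno-treated samples.

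In the large subunit, 12 of 13 probe sets were on the higher side, with a median log2 difference of 0.32 as deposited and of 0.10 after quantile normalization. Rpl41, the smallest ribosomal protein, had the largest difference of any member on the deposited scale. Its intensities were 10422 and 14232 in adeno-treated samples, against 6908 and 7312 in untreated samples. The log2 change was 0.78 ± 0.20 (SE, limma adjusted p = 0.49), and with the block the adjusted p was 0.073. After quantile normalization its change was 0.23, and a dim probe set of the large subunit then had the highest, at 0.54. Rpl19, Rpl7a, Rpl6 and Rpl8, the last of which lines the peptidyl transferase centre, had log2 differences of 0.34, 0.32, 0.32 and 0.28. Rpl22, a protein needed for the development of some T cells in mice, had 2 dim probe sets with differences of 0.50 and 0.27. Rpl13a, known in human monocytes for a second role in silencing inflammatory messages, differed by 0.098, with 917 and 1009 in adeno-treated samples, against 891 and 905 in untreated samples. Rpl32 was near the limit of brightness, and its samples overlapped at 20.2 and 55.7 in adeno-treated samples, against 33.4 and 17.2 in untreated samples.

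In the small subunit, 13 of 15 probe sets were on the higher side, with a median log2 difference of 0.29 as deposited and of 0.086 after quantile normalization. Rps3a1 had intensities of 5431 and 6760 in adeno-treated samples, against 4096 and 4524 in untreated samples, and a log2 change of 0.49 ± 0.17 (SE, limma adjusted p = 0.51). Rps18, a protein of the subunit's head, had 5920 and 7305 in adeno-treated samples, against 4738 and 4655 in untreated samples. Its log2 change was 0.49 ± 0.16 (SE, limma adjusted p = 0.51). Rps3, which lies at the entrance of the messenger RNA channel, differed by 0.37, Rps24 by 0.38 and Rpsa, also known as the laminin receptor, by 0.31. In none of these did the 2 groups overlap.

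The 3 members on the lower side were Rps19, Rpl10a in 1 of its 2 probe sets, and Rps27. Rps19, a protein needed to mature the small subunit and the gene most often mutated in human Diamond-Blackfan anaemia, had 2204 and 3115 in adeno-treated samples, against 4145 and 4127 in untreated samples. Its log2 change was -0.66 ± 0.33 (SE, limma adjusted p = 0.66). Rpl10a lies at the mobile L1 stalk of the large subunit. Its probe set whose name ends in f, the dimmer of 2, had 1373 and 1354 in adeno-treated samples, against 1832 and 1957 in untreated samples, a log2 change of -0.47 ± 0.21 (SE, limma adjusted p = 0.59). Rps27 had 333 and 305 in adeno-treated samples, against 338 and 341 in untreated samples, and its groups did not overlap.

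**Figure D2:**
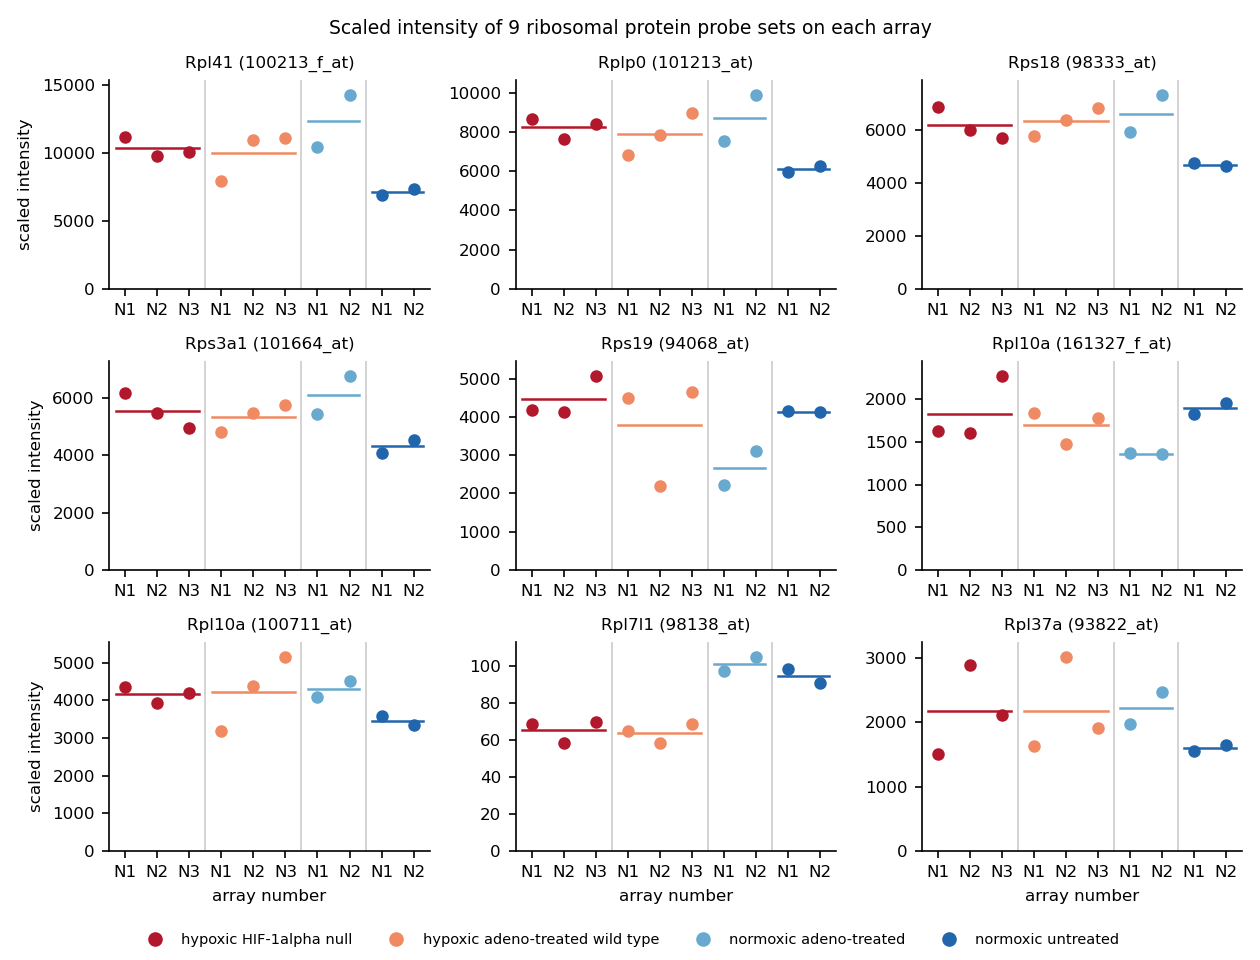
Scaled intensity (y axes, linear, from 0) of 9 ribosomal protein probe sets on each array (x axes, by the number in the label), with 1 point per array and a bar at each group's mean. Rpl41, Rplp0, Rps18 and Rps3a1 were lowest in the untreated samples, Rps19 was at 2198 to 3115 on 3 arrays and at 4127 or more on the other 7, and Rpl7l1 was at 70.0 or less on all 6 hypoxic arrays.

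Other bright probe sets showed a difference of like size between adeno-treated and untreated samples. The 155 other probe sets with a mean intensity above 3000, none with a ribosomal protein gene among its symbols, had a median log2 difference of 0.30. Of them, 144 were on the higher side. The 18 members of that brightness had a median of 0.32, with 17 on the higher side. The 11 members dimmer than 1000 had a median of 0.11. The arrays themselves differed at the top of their range, where the 99th percentile of intensity was 4437 and 4957 in adeno-treated samples, against 3891 and 4033 in untreated samples. After quantile normalization, which gives all arrays the same distribution, the members' median was 0.089, with 26 of 32 on the higher side. The members above 3000 then had a median of 0.037 and the other probe sets above 3000 one of 0.00097. Rps19 and the dimmer Rpl10a probe set were on the lower side under either scaling. The 35 tested probe sets with several symbols, a ribosomal protein gene among them, had a median of 0.16 as deposited and of -0.021 after quantile normalization. Of the hepatocyte markers, 19 probe sets for 17 of 20 listed genes, none at 0, summed to 75772 and 96536 in adeno-treated samples, against 62926 and 71030 in untreated samples. The 6 erythroid probe sets, of which 4 were too dim to test, summed to 144 and 186 in adeno-treated samples, against 81 and 103 in untreated samples. The part of these markers and of the arrays' upper range in the members' shift was not tested.

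**Figure D3:**
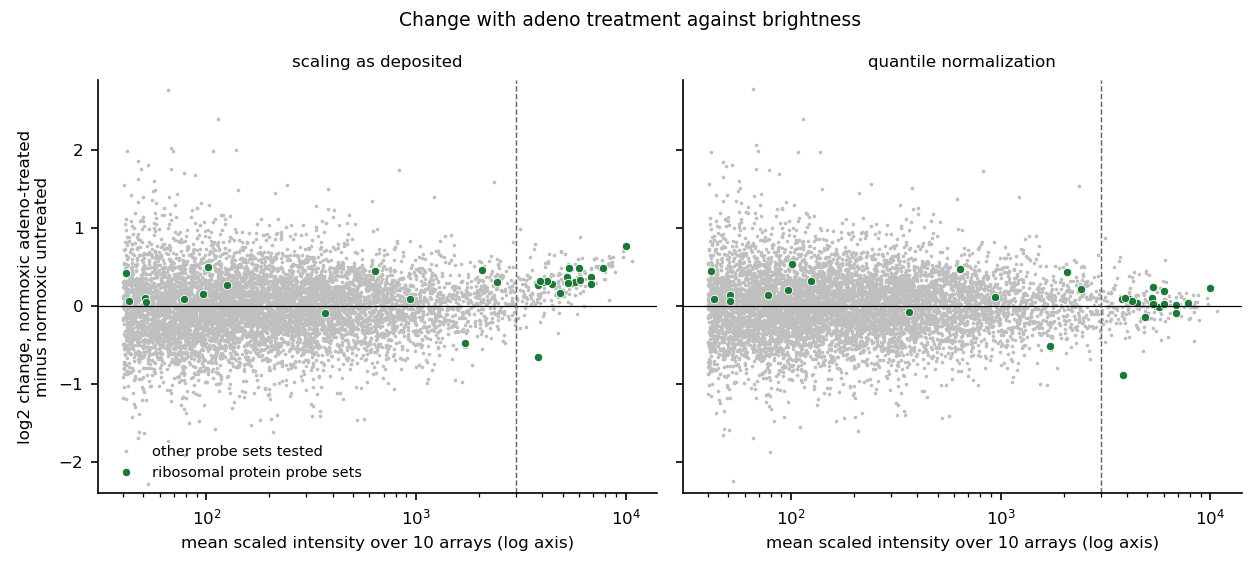
Log2 change of adeno-treated minus untreated normoxic samples (y axis) against mean scaled intensity over 10 arrays (x axis, log scale), as deposited on the left and after quantile normalization on the right, with grey points for other probe sets and green points for the 32 ribosomal protein probe sets. Right of the dashed line at 3000, green and grey points lie together above 0 on the left, with medians of 0.32 and 0.30, and near 0 on the right, with medians of 0.037 and 0.00097. The grey points include probe sets with several symbols, a ribosomal protein gene among them, which the medians given for grey points leave out.

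The start sites of the 4 members of smallest p in that comparison are shown to let their sequence be compared. That of Rpl7l1, the lowest member in both comparisons of hypoxic with normoxic adeno-treated samples though not called, is shown too. They are from RefSeq (GRCm38.p6), give 80 bases before the start and 20 from it, and have matches to CCGGAAG or its reverse complement CTTCCGG, the core bound by ETS factors, in capitals.
Rpl41, chr10:128549149-128549248, minus strand: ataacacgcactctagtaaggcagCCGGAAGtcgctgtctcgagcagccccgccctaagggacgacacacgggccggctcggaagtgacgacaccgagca
Rps18, chr17:33955646-33955745, minus strand: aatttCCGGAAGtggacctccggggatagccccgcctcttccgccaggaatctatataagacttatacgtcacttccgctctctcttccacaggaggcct
Rps3a1, chr3:86142649-86142748, minus strand: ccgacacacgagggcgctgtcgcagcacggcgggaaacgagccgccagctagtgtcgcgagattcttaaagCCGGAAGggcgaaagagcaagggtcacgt
Rplp0, chr5:115559387-115559486, plus strand: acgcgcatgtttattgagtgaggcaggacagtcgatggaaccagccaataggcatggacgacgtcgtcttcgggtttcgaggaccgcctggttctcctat
Rpl7l1, chr17:46782637-46782736, minus strand: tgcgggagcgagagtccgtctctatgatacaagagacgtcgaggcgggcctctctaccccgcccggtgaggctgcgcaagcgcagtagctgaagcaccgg
The ETS core stood in Rpl41, Rps18 and Rps3a1, and these letters were not in the windows of Rplp0 and Rpl7l1. RefSeq windows, of 250 bases before and 50 after a start, existed for 28 of the 35 genes, 37 windows in all. On either strand the ETS core was in 12 of the 37, against 8.86% of all 32851 windows. The core of the hypoxia response element, ACGTG or CACGT, was in 12 of 37 windows, of 8 genes, against 19.6% of all windows, and the E-box CACGTG holds it as well. AAGATGGC or GCCATCTT, the core bound by YY1, was in 7 of 37, against 2.75%. The GC box GGGCGG or CCGCCC was in 21 of 37, against 35.7%. A run of at least 8 pyrimidines within 50 bases of the start, on the message strand, was in 24 of 37, against 35.7%. Several windows can belong to 1 gene and overlap, and a match describes letters, not a site in use.

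Hypoxic wild-type samples were set against normoxic adeno-treated samples to see what low oxygen did in cells with HIF-1alpha. No member was called. Their median log2 difference was -0.055, against -0.023 over all probe sets, and 11 of 32 were on the higher side, as were 47.1% of all probe sets. Unadjusted p-values under 0.05 numbered 0 higher and 1 lower, against 4.54% and 3.45% of all probe sets. All 3 hypoxic samples were above both normoxic samples for 2 members, and below for 3, where 11.7% and 13.1% of all probe sets showed such separation. The median was -0.071 in the large subunit and -0.00079 in the small subunit. The median turned to 0.079 without adeno-treated sample 2 and to 0.12 when all 4 normoxic samples were the reference. After quantile normalization it was 0.038, with 18 of 32 on the higher side. Its sign thus differed between normoxic samples and between scalings.

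The stalk protein gene Rplp0 had intensities of 6810, 7855 and 8942 in hypoxic wild-type samples, against 7543 and 9857 in normoxic adeno-treated samples. Its log2 change was -0.14 (95% interval -0.50 to 0.22), and the groups overlapped. Rpl41 had 7951, 10938 and 11086 in hypoxic wild-type samples, against 10422 and 14232 in adeno-treated samples, a log2 change of -0.30 ± 0.18 (SE, limma adjusted p = 0.75). Rpl8 was below both adeno-treated samples on every hypoxic wild-type array, with 4553, 4356 and 4252 in hypoxic wild-type samples, against 4843 and 4994 in adeno-treated samples. That amounted to a log2 change of -0.17 (95% interval -0.47 to 0.14). Rps18 and Rps3 had log2 changes of -0.057 and -0.019, and Rpsa of 0.047.

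Of the 11 probe sets on the higher side, 5 had a mean above 1000. They were Rps19, the dimmer probe set of Rpl10a, Rpsa, Rps10 and the less bright of the 2 bright probe sets of Rps28. The last 3 changed by less than 0.05 on the log2 scale. The Rpl10a probe set had 1842, 1473 and 1786 in hypoxic wild-type samples, against 1373 and 1354 in adeno-treated samples, without overlap. Its log2 change was 0.31 ± 0.19 (SE, limma adjusted p = 0.75). Rps19 had 4489, 2198 and 4654 in hypoxic wild-type samples, against 2204 and 3115 in adeno-treated samples, a log2 change of 0.45 ± 0.30 (SE, limma adjusted p = 0.77). Its second hypoxic wild-type sample was as low as the adeno-treated ones. Rpl22 in the brighter of its 2 probe sets had 106, 154 and 182 in hypoxic wild-type samples, against 105 and 115 in adeno-treated samples, a log2 change of 0.38 ± 0.25 (SE, limma adjusted p = 0.77). Its other probe set changed by -0.063. Rps27, whose protein carries a zinc finger, had 350, 422 and 405 in hypoxic wild-type samples, against 333 and 305 in adeno-treated samples, with no overlap and an adjusted p of 0.79 in limma.

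Rpl7l1, a paralog of Rpl7 known in human cells for a part in the assembly of the large subunit, was the lowest member in both comparisons of hypoxic with normoxic adeno-treated samples. It had intensities of 68.5, 58.4 and 70.0 in null samples and 64.9, 58.2 and 68.6 in hypoxic wild-type samples, against 97.4 and 104.8 in adeno-treated samples and 98.7 and 90.7 in untreated samples. All 6 hypoxic arrays thus lay below all 4 normoxic arrays. It was the only member of 32 to do so and none did the opposite, where 2.8% of all probe sets lay lower and 2.63% higher. The count of members was thus near the share over all probe sets. Its log2 change was -0.63 ± 0.20 (SE, limma adjusted p = 0.42) in hypoxic wild type and -0.59 ± 0.20 (SE, limma adjusted p = 0.35) in null samples, both against adeno-treated samples. The 2 comparisons share the adeno-treated samples. With the block, the limma adjusted p was 0.12 and 0.11. Against all 4 normoxic samples with the block, an alternative chosen after the data were seen, it was 0.069 and 0.059. The call was thus not reached under any alternative, with adjusted p between 0.069 and 0.9998 for wild type and between 0.059 and 0.998 for null samples. The probe set is dim, and null and wild-type hypoxic samples differed by 0.035 on the log2 scale (95% interval -0.37 to 0.44).

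Hypoxic null samples were set against hypoxic wild-type samples to ask what HIF-1alpha contributes. The members did not separate. Their median log2 difference was 0.024, the same as over all probe sets to 2 digits, and 20 of 32 were on the higher side, as were 55% of all probe sets. All members lay between -0.12 and 0.37. After median scaling the median was -0.038, with 11 of 32 on the higher side, and over all probe sets it was -0.036. No member had an unadjusted p under 0.05 as deposited and without the block, which 1.74% of all probe sets had in the higher and 1.73% in the lower direction. With the block, 1 member was higher and 0 lower at such a p, where 351 and 342 of all 7453 probe sets were. No member had non-overlapping samples in either direction, while 4.03% of all probe sets lay entirely higher and 2.75% entirely lower. The median was 0.018 in the large subunit and 0.021 in the small subunit. For Rplp0 the values were 8664, 7634 and 8407 in null samples, against 6810, 7855 and 8942 in wild-type samples, a log2 difference of 0.072 (95% interval -0.25 to 0.39). For Rps3 they were 5822, 5356 and 5330.0 in null samples, against 5106, 5974 and 5395 in wild-type samples, a log2 difference of 0.0049 (95% interval -0.28 to 0.29).

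The 4 members of smallest p between null and wild type were Rps4l, Rps19, Rpl7 and Rps13, all with a limma adjusted p of 0.9995. Rps4l, a mouse gene related to Rps4x, had 780, 563 and 731 in null samples, against 654, 486 and 616 in wild-type samples in the brighter of its 2 probe sets. The null sample of each number was higher than the wild-type one, although the groups overlapped, and the log2 difference was 0.24 ± 0.21 (SE). With the block, this probe set of Rps4l had an SE of 0.11 and a limma adjusted p of 0.54 (unadjusted p = 0.0496). Its other probe set, at 28.3 to 75.6, differed by -0.0096. Rps19 had 4172, 4130 and 5058 in null samples, against 4489, 2198 and 4654 in wild-type samples, and the difference of 0.31 rests on wild-type sample 2. Rpl7, a large-subunit protein, had 5107, 4813 and 5302 in null samples, against 4342, 4577 and 5057 in wild-type samples, a log2 difference of 0.12 ± 0.13 (SE). Rps13 was dim, at 30.6, 56.9 and 75.7 in null samples, against 39.6, 59.1 and 23.7 in wild-type samples.

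Hypoxic null samples were also set against normoxic adeno-treated samples. These groups differ in oxygen and may differ in HIF-1alpha and in adeno treatment as well. Without a normoxic null sample, such differences cannot be told apart here. The members' median log2 difference was -0.032, against 0.0057 over all probe sets, and 11 of 32 were on the higher side, as were 50.8% of all probe sets. After quantile normalization the median was 0.055, with 23 of 32 on the higher side. Unadjusted p-values under 0.05 numbered 1 higher and 1 lower, against 5.18% and 4.59% of all probe sets. Of 32 members, 2 lay entirely higher and 1 entirely lower, where 13.8% and 12.1% of all probe sets did. The entirely higher ones were Rps19 and the dimmer probe set of Rpl10a. Rps19 changed by 0.76 ± 0.30 on the log2 scale (SE, limma adjusted p = 0.44), from the values given above. The Rpl10a probe set had 1624, 1602 and 2269 in null samples, against 1373 and 1354 in adeno-treated samples, a log2 change of 0.41 ± 0.19 (SE, limma adjusted p = 0.53). Both lay lower in adeno-treated than in untreated samples. Their null levels overlapped those of the untreated samples. The entirely lower one was Rpl7l1. Rps28 had 3 probe sets, of which the dim one had 42.4, 35.0 and 58.5 in null samples, against 66.0 and 54.2 in adeno-treated samples. The 2 bright ones changed by 0.012 and -0.035. Rpl41 changed by -0.24 (95% interval -0.65 to 0.17). As with wild type, the median turned to 0.15 when all 4 normoxic samples were the reference.

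Arrays of 1 group differed in the members' general level. The median of the members, each centred on its mean over 10 arrays, was 0.090, -0.0072 and 0.11 in null samples 1 to 3, -0.080, 0.073 and 0.15 in hypoxic wild-type samples, -0.030 and 0.17 in adeno-treated samples, and -0.25 and -0.21 in untreated samples. The untreated samples were thus the lowest, and adeno-treated sample 2 was the highest. The medians of the 155 other bright probe sets were -0.013, -0.030 and 0.057 in null samples, -0.11, 0.075 and 0.17 in wild-type samples, 0.061 and 0.30 in adeno-treated samples, and -0.19 and -0.12 in untreated samples.

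**Figure D4:**
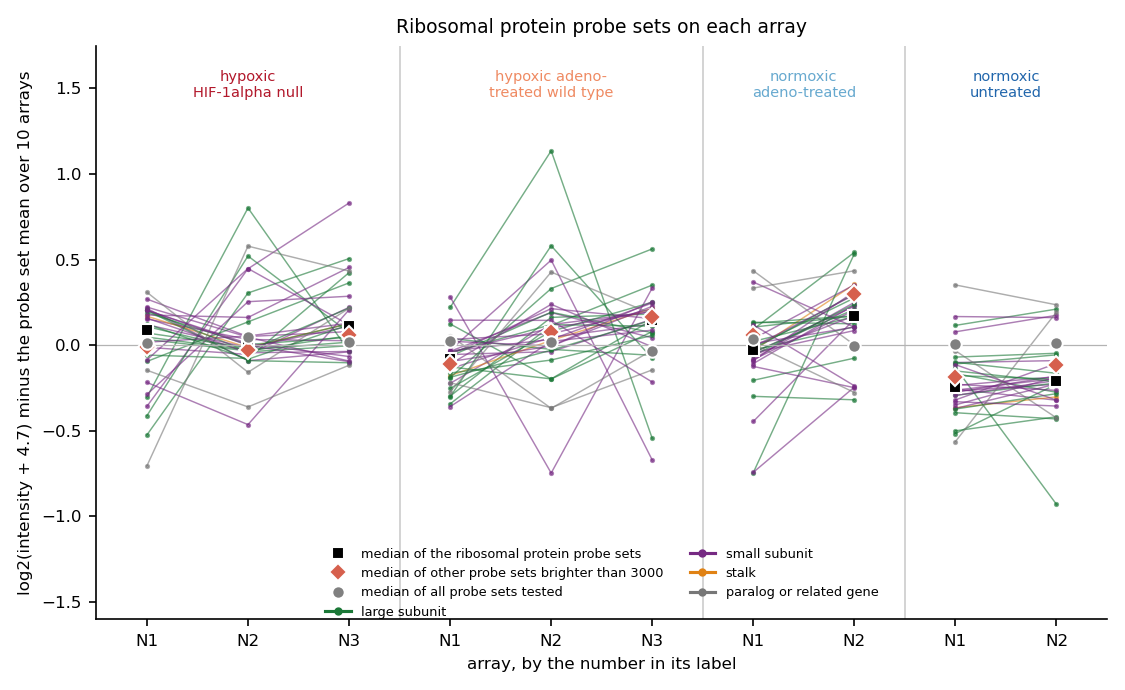
Log2 of intensity plus 4.7 minus the probe set's mean over 10 arrays (y axis) on each array (x axis, by group and number), with thin lines joining the values of a ribosomal protein probe set within a group. Black squares mark the median of the 32 probe sets, which is lowest in the untreated samples at -0.25 and -0.21, red diamonds that of 155 other probe sets brighter than 3000, and grey circles that of all 7453.

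Within a number, null minus wild type was 0.17 for number 1, with 23 of 32 members higher, -0.052 for number 2, with 13 higher, and 0.0039 for number 3, with 16 higher. Over all probe sets, 49.7%, 54.6% and 53.9% were higher. Adeno-treated minus untreated was 0.23 for number 1, with 26 of 32 higher, and 0.37 for number 2, with 27 higher, while 51.4% and 48% of all probe sets were higher. Hypoxic wild type minus adeno-treated was -0.061 and -0.11 for numbers 1 and 2, and null minus adeno-treated was 0.10 and -0.22. The sign of the last thus differed between the numbers.

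The numbers 1, 2 and 3 stood in the same order of intensity in null and in wild-type samples for 8 of 32 members, against 39.1% of all probe sets. The 8 were Rpl13a, the brighter probe set of Rpl22, Rpl37a, Rpl8, Rps19, Rpl7l1 and both probe sets of Rps4l. Rpl37a, a large-subunit protein chosen here after its values were seen, was the clearest. It had 1514, 2893 and 2119 in null samples and 1633, 3016 and 1909 in hypoxic wild-type samples, against 1983 and 2480.4 in adeno-treated samples and 1555 and 1655 in untreated samples. Number 2 was high in both hypoxic groups. Markers of stellate cells and fibroblasts followed the number in the hypoxic groups. Over 24 probe sets for 18 of 20 listed genes, none of them at 0 on every array and 4 too dim to test, the summed intensity was 27698, 20007 and 10376 in null samples, 28256, 20646 and 10035 in wild-type samples, 18548 and 19072 in adeno-treated samples, and 18100 and 16425 in untreated samples. Macrophage and endothelial markers, mostly too dim to test, had the same order. Their sums were 1432, 1141 and 958, and 1300, 891 and 684, in null samples. In wild-type samples they were 1896, 1279 and 1002, and 1488, 906 and 734. Lymphocyte sums rose from number 1 to number 3 in both groups, and erythroid sums had no common order. Biliary markers were highest in sample 1 of all 4 groups. Over 8 probe sets, none at 0 on every array and 2 too dim to test, their summed intensity was 19090, 15685 and 12416 in null samples, 17799, 16100 and 12238 in wild-type samples, 14960 and 14039 in adeno-treated samples, and 13148 and 11653 in untreated samples. The summed hepatocyte markers were lowest in sample 1 of each group, at 65401, 67506 and 76807 in null samples and 60901, 76860 and 87430 in wild-type samples, as in the normoxic sums given above. The members' median was lowest in sample 1 and highest in sample 3 among wild-type samples, and lowest in sample 2 among null samples. Its relation to these markers was not tested.

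**Figure D5:**
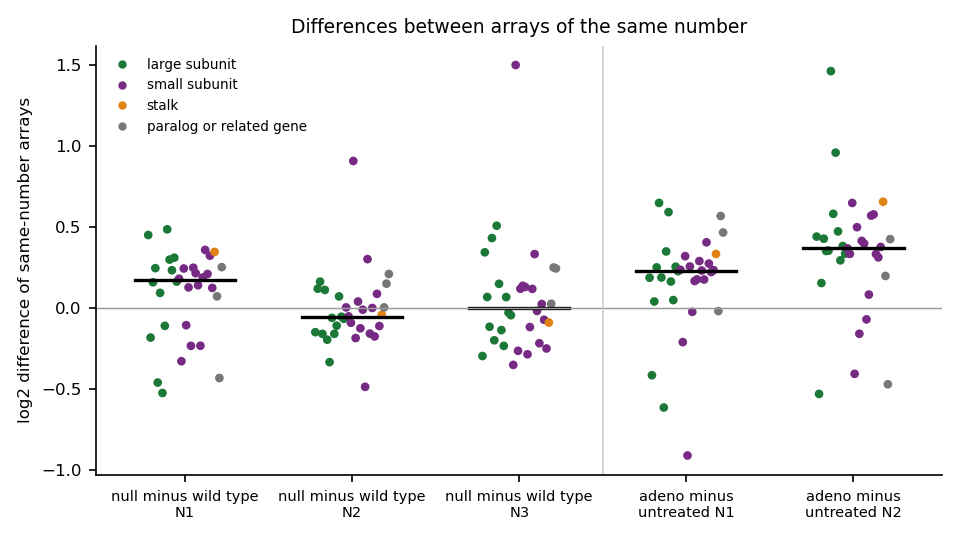
Log2 difference between arrays of the same number (y axis) for each of the 32 tested ribosomal protein probe sets, for null minus wild type and for adeno-treated minus untreated samples (x axis), with a bar at the median. The median of null minus wild type is 0.17 for number 1 and near 0 for numbers 2 and 3, and that of adeno-treated minus untreated is 0.23 and 0.37.

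Most bright members followed the median of all 32 members more closely than dim ones did, and this is a description of 10 arrays only. Of the 32, 21 had a mean intensity above 1000, so the median is mainly theirs and their likeness to it is partly built in. Likeness between single members was not computed. Some bright members followed the median less, such as Rpl8 (r = 0.47) and Rpl37a (r = 0.48). The log2 values of 15 of 32 members had a Pearson r above 0.8 with the members' median, to which each member contributes. Rplp0 (0.98), the brightest probe set of Rps28 (0.97) and Rpl41 (0.93) were highest, and Rpl7l1 (-0.31), the dimmer probe set of Rpl10a (-0.28) and Rps19 (-0.10) lowest. Probe sets of 1 gene could differ. Rpl10a in its brighter probe set had r = 0.84 and followed the bright members, with 4353, 3945 and 4194 in null samples, 3181, 4373 and 5149 in hypoxic wild-type samples, 4098 and 4531 in adeno-treated samples, and 3597 and 3335 in untreated samples. It was higher in adeno-treated than in untreated samples, by 0.32 on the log2 scale, where the dimmer probe set was lower.

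The probe sets outside the family most like that median were mostly those of very abundant hepatocyte messages. By Pearson r over the 10 arrays they were Serpina1b (0.98), Serpina1c (0.95), Mt2 (0.95), Alb (0.95), Eef1a1 (0.95), Apoe (0.94), Gstm1 (0.93), Apoa1 (0.92), Hpx (0.92) and Tpt1 (0.91). Alb, the gene of serum albumin, had 10659, 10883 and 11183 in null samples, 9436, 11480.5 and 12354 in wild-type samples, 10967 and 13761 in adeno-treated samples, and 8039 and 8366 in untreated samples. In all, 48 of 6690 other probe sets with 1 symbol had an r above 0.8. They share the arrays and their scaling with the members, and 24 of them were among the 598 brighter than 1000.

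Genes around the ribosome were described from lists. Of 18 translation factors and partners whose messages carry a TOP motif, 15 had a tested probe set (19 probe sets). Without the block, 0 were called in any comparison. Their median was 0.16 for adeno-treated against untreated samples, -0.028 for hypoxic wild type and -0.035 for null samples against adeno-treated ones, and 0.048 for null against wild type. The elongation factor gene Eef1a1 had 8523 and 10595 in adeno-treated samples, against 6530 and 6712 in untreated samples, a log2 change of 0.52 ± 0.16 (SE, limma adjusted p = 0.49). Of 44 genes of ribosome biogenesis and the nucleolus, 39 had a tested probe set (44 probe sets), and 0 were called without the block. The medians were -0.17 for hypoxic wild type and -0.0084 for null samples, against -0.023 and 0.0057 over all probe sets. By array, the list's centred median was 0.23 and -0.033 in adeno-treated samples and -0.065, -0.11 and 0.030 in hypoxic wild-type samples. It was 0.20, -0.028 and -0.074 in null samples, and 0.089 and -0.083 in untreated samples. Adeno-treated sample 2 thus lay within the range of the hypoxic wild-type samples, and sample 1 above it. Bop1, a factor in the maturation of the large subunit, had 199.5, 181.5 and 199.3 in hypoxic wild-type samples, against 329.6 and 286.6 in adeno-treated samples in the brighter of its 2 tested probe sets (log2 change -0.66 ± 0.18, SE, limma adjusted p = 0.30). Gar1, a protein of the box H/ACA particles that modify ribosomal RNA, had 905, 743 and 920 in null samples and 792, 528 and 1013 in hypoxic wild-type samples, against 580 and 410.3 in adeno-treated samples. That was a log2 change of 0.80 in null samples (limma adjusted p = 0.35) and 0.62 in wild-type samples (adjusted p = 0.60). Gnl3, the nucleolar protein nucleostemin, had 407, 336 and 470 in null samples and 293, 334 and 424 in hypoxic wild-type samples, against 263 and 233 in adeno-treated samples. On the log2 scale it changed by 0.68 in null samples (limma adjusted p = 0.32) and 0.48 in wild-type samples (adjusted p = 0.61).

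Mitochondrial ribosomal proteins serve the separate ribosome of the mitochondrion. Of 66 tested probe sets for 58 genes, 15 were on the higher side in hypoxic wild type and 19 in null samples, each against adeno-treated samples. The medians were -0.20 and -0.17, and 0 were called without the block. Mrps21 had 814, 806 and 750.0 in null samples and 808, 764 and 849.7 in wild-type samples, against 1117 and 1264 in adeno-treated samples. Its log2 change in null samples was -0.59 (limma adjusted p = 0.20, and 0.033 with the block). Mrpl50, in a dim probe set, had 41.3, 44.4 and 66.8 in null samples, against 92.2 and 115.3 in adeno-treated samples. Untreated samples, at 75.0 and 65.6, overlapped the null ones. Against adeno-treated samples its log2 change in null samples was -0.99 (limma adjusted p = 0.33), and -1.21 with the block (adjusted p = 0.020). In that comparison 2.87% of all probe sets were called lower with the block.

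Of 23 genes that control ribosomal protein synthesis, 14 had a tested probe set (17 probe sets), and 0 were called without the block. Eif4ebp1, the mTOR-regulated inhibitor of cap-dependent translation, changed by 0.95 in hypoxic wild type (limma adjusted p = 0.098), and passed with the block (0.86, adjusted p = 0.021). Myc, which drives transcription of ribosomal genes, changed by 1.10 in null samples against adeno-treated ones (limma adjusted p = 0.11) and passed with the block (0.97, adjusted p = 0.014). In hypoxic wild type it changed by 0.91 (adjusted p = 0.26, and 0.051 with the block). Eif4ebp2 went the other way, by -1.07 in null against adeno-treated samples (limma adjusted p = 0.37). Ddit4 had 313, 1246 and 1355 in null samples, against 1524, 1909 and 2272 in hypoxic wild-type samples. Its log2 difference was -1.21, and that of Eif4ebp1 between the same groups was -0.39 (limma adjusted p = 0.9995 for both).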

How the data were processed

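Total RNA of 10 samples was measured on 1-colour oligonucleotide arrays. The intensity values were deposited by the authors on a linear scale, and the steps from the scans to them are not stated in the sources used here. That each array was scaled to a common mean was computed from the values. Probe sets were named from the platform's table (10855 with 1 symbol, 396 with several, 1237 with none), and 10839 of the first matched the RefSeq annotation GRCm38.p6, as did all 49 members.

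Before log2 was taken, 4.7, which is the 10th percentile of the whole table, was added. The 66 control probe sets and those under the 40th percentile of mean intensity were left out, which left 7453. limma 3.58.1 in R 4.3.3 fitted the 4 group means over all 10 arrays (lmFit and eBayes with its trend option, leaving 6 residual degrees of freedom), and Benjamini-Hochberg adjustment ran over all 7453 probe sets at a threshold of 0.05. Samples of the same number deviated together in all 13 pairs (r at least 0.10), while pairs of different numbers reached 0.25, and the fit with the number as a block was an alternative. The pairs are not independent, since the deviations in a group of 2 arrays mirror each other. The fit was run on simulated data with larger changes than any member's and with independent noise. That run does not measure the power for changes of the members' size. Precision is limited by the number of arrays.

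Members and gene lists were chosen with earlier results of these data known. Members named were the 4 of smallest p in each comparison (none passed), Rplp0, Rpsa, Rpl22, Rpl13a, Rps3 and Rps19, the 3 of highest and of lowest spread, and genes whose probe sets differ in sign. Others named were list genes of small p and the 10 probe sets most like the members' median. Alternatives were 2 other offsets, other filters, quantile and median scaling, no trend, the block, and arrays left out.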

Additional observations from a re-analysis of the deposited data

How the results depend on the processing

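The count of 0 ribosomal protein probe sets called held under every alternative in all 4 comparisons but 2, both with the replicate block and 1 array left out, settings added after the data were seen. Rps19 was called higher in null than in adeno-treated samples without hypoxic wild-type sample 2 (log2 change 0.71, limma adjusted p = 0.042), and Rpl41 was called higher in adeno-treated than in untreated samples without null sample 1 (0.78, adjusted p = 0.037), which makes the counts 0 to 1. The members' median log2 change in hypoxic wild type against adeno-treated samples was -0.055. It was -0.065 with the replicate block, 0.059 with the block and quantile normalization, 0.12 against all 4 normoxic samples, 0.078 against these with the block, and -0.18 to 0.079 with 1 array left out (-0.18 to -0.027 with the block). For null against adeno-treated samples it was 0.15 against all 4 normoxic samples, 0.12 with the block there, and -0.15 to 0.096 with 1 array left out (-0.17 to 0.056 with the block, -0.16 without adeno-treated sample 1). For adeno-treated against untreated samples it was 0.089 after quantile normalization, with or without the block, and 0.21 to 0.37 with 1 array left out. For null against wild type it was -0.047 to 0.069 with 1 array left out (-0.046 to 0.079 with the block). The cause was not tested. Without adeno-treated sample 2, both hypoxic medians turned to the higher side, at 0.079 and 0.096, and with the block they were -0.027 and 0.056. Without hypoxic wild-type sample 1 the wild-type median turned to 0.033. Quantile normalization turned both too, to 0.038 and 0.055. Calls among all probe sets, higher and lower, were 24 and 1 in hypoxic wild type and 110 and 54 with the block, 26 and 7 in null against adeno-treated samples and 219 and 214 with it, 0 and 0 in null against wild type and 1 and 7 with it, and 0 and 0 in adeno-treated against untreated samples and 8 and 10 with it. For the named probe sets, 304 of 2792 values under an alternative moved by more than the spread between arrays, and 2 passed the threshold, those above. Dim probe sets such as Rpl32, Rps13 and the dimmer of Rps4l are limited by signal near background.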
